A study of Mus musculus with 12 samples.

Results

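The 10 genes described here were Myc, Mycn, Lin28b, Igf2bp1, Igf2bp2, Igf2bp3, Hmga1, Hmga2, Igf2 and H19, a set of growth regulators that are active in the embryo and recur in cancer. They were chosen by symbol: each row of the deposited expression table whose mouse Ensembl gene identifier maps to 1 of these names was taken, which gave 10 of 24432 genes. The table holds 12 mouse RNA libraries in 4 groups of 3, and values are FPKM, a fragment count divided by transcript length and library size. Both the primary kidney tumors and the lung metastases grew in Slc34a1CreERT2;Lats1/2flox/flox mice of mixed background. In these mice tamoxifen activates a Cre recombinase driven by Slc34a1, the phosphate transporter gene of the proximal tubule, and removes Lats1 and Lats2. The mice received 3 tamoxifen injections at 1 month of age and the tumors were dissected 4 months later. The comparison cells were proximal tubule cells sorted by flow cytometry from adult Slc34a1CreERT2;Lats1c/c;Lats2c/+;RosaTomato kidneys. One label calls these cells wild type, although the genotype carries the same Cre and floxed alleles, and neither their age nor a tamoxifen treatment is given for them. Allograft tumors grew for 6 weeks from Lats1-/-;Lats2-/- cells of mixed source placed beneath the renal capsule of NOD/scid hosts, which lack T and B cells and were 6 to 8 weeks old. How many clones or donors these cells represent is not given. The labels do not say that the 3 libraries of a group came from separate animals, so the tests measure only the spread between these libraries.

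LATS1 and LATS2 are the kinases at the end of the Hippo pathway: they phosphorylate YAP and TAZ, which are then kept out of the nucleus, and without them YAP and TAZ drive transcription together with the TEAD factors. MYC and MYCN are transcription factors that raise ribosome production and cell growth. LIN28B binds precursors of the let-7 microRNAs and blocks their maturation, and mature let-7 represses, among others, Lin28b itself, Hmga2 and the Igf2bp genes. The IGF2BP proteins bind and stabilise messenger RNAs (Igf2 and Myc transcripts among them), the HMGA proteins bend AT-rich DNA and open chromatin, and IGF2 is a fetal growth factor. H19 is a noncoding RNA from the imprinted locus that also holds Igf2. Most of these genes are abundant in fetal tissue and low in the adult kidney.

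The libraries differed in ways that bear on every comparison below. FPKM summed to 706093 to 738052 in the sorted cells and to 1352265 to 2527747 in the tumors. Depth was estimated by taking the most common low product of FPKM and transcript length as 1 fragment. It was about 4800000 to 5900000 fragments in the sorted cells and 11300000 to 18600000 in the tumors. By this estimate 1 fragment in a transcript of 2 kb was worth 0.0847 to 0.1035 FPKM in the former and 0.0268 to 0.0442 in the latter. Because of the unequal sums, the direction of small differences from the sorted cells depended on the scaling. The median gene was 0.59, 0.68 and 0.66 higher (log2) in primary tumors, metastases and allografts as deposited, but -0.29, -0.18 and -0.37 after rescaling to TPM (each library to the same sum). Genes called higher made up 90.8% of all calls between primary tumors and sorted cells as deposited, and 35.9%, 59.4% and 39.4% under TPM, median-of-ratios and quantile scaling. For metastases against sorted cells these shares were 78.9%, 43.7%, 58.4% and 46.5%, and for allografts against sorted cells 75.6%, 33.6%, 57.0% and 50%. TPM rescaling also moved the share between allografts and primary tumors from 49.3% to 31.9%, and quantile normalization and TPM rescaling moved that between allografts and metastases from 44.0% to 54.8% and 17.5%. Lats1 lay at 9.54 to 14.7 FPKM in primary tumors, metastases and sorted cells and at 5.6 to 7.82 in allografts, and Lats2 at 10.5 to 11 in sorted cells and 12.2 to 22.5 in the tumors. These are values for whole genes, and the deleted exons are not given, so they do not check the deletion. Marker genes showed mixed tissue: 9 lung epithelium markers summed to 12454.3 to 19685.1 FPKM in the metastases and at most 875 elsewhere. Likewise 11 proximal tubule markers summed to 274 FPKM in primary tumor 1 but to 57408.9 and 13930.6 in primary tumors 2 and 3, with 6538.6 to 6776.6 in the sorted cells. These sums do not stand for the list: against sorted cells 0 of the 11 were called higher in primary tumors and 6 lower (median -2.55). Only Kap had a positive difference there (2.52, not called). Of all genes 48.2% were called higher and 4.9% lower. Fibroblast and macrophage marker sums were at most 6.0 and 7.84 FPKM in the sorted cells and at least 170 and 416 in every tumor. Primary tumors 1, 2 and 3 differed in further sums, so comparisons with this group mix unlike samples. The 7 markers of other nephron segments gave 321, 2103.9 and 4610.3 FPKM. Fibroblast markers gave 1170.4, 170 and 317, and 18 proliferation markers 388, 113 and 102. In bulk samples of this kind fewer cells of a type and less RNA per cell cannot be told apart.

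Several of these genes are textbook targets of let-7, and the letters behind that link are shown first. Of 11 names of the let-7 family listed by RefSeq (GRCm38.p6), miR-98 included, 10 share the same seed, the 7 bases by which the microRNA pairs with its targets. It is in capitals in the examples that follow.
mmu-let-7a-5p: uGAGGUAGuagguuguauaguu
mmu-let-7g-5p: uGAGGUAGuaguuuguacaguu
The match to this seed in a messenger RNA reads CTACCTC. In the longest coding transcripts of the GENCODE M21 annotation (GRCm38), searched on the transcript strand, Lin28b (3′ UTR of 4445 bases), Igf2bp1 (6337 bases) and Hmga2 (3014 bases) each held 4 matches. Igf2bp2, Igf2bp3 and Hmga1 held 1 each, and Myc, Mycn and Igf2 held 0. H19 has no coding sequence and so no 3′ UTR. Among the 14412 genes with a 3′ UTR that passed the expression filter, 10% held at least 1 match and 0.167% held 3 or more, with a median UTR of 1104 bases. Longer UTRs have more room for matches. In the first 1000 bases alone, Lin28b, Igf2bp3, Hmga1 and Hmga2 held 1 match each, and Igf2bp1, Igf2bp2 and Igf2 held 0. Of the 7679 filtered genes with a 3′ UTR of at least 1000 bases, 6.77% held a match in that stretch. Only this match of 7 bases was looked for, in 1 transcript per gene. Other kinds of let-7 site were not searched, in Myc, Mycn and Igf2 or elsewhere. One site of 30 bases from each of the 6 genes with a match is printed with the seed match in capitals. In this search these letters separate the 6 genes from Myc, Mycn and Igf2.
Hmga2, chr10:120364213-120364242, minus strand: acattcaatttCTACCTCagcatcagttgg
Lin28b, chr10:45381011-45381040, minus strand: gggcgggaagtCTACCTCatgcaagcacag
Igf2bp1, chr11:95959346-95959375, minus strand: agtgctattaaCTACCTCagccccagaggg
Igf2bp2, chr16:22059462-22059491, minus strand: acaaataaaagCTACCTCaggtgtttttta
Igf2bp3, chr6:49086776-49086805, minus strand: tttttactcaaCTACCTCaggtattcagta
Hmga1, chr17:27563281-27563310, plus strand: ctgttcacaaaCTACCTCtggacggttgtg
A match describes the sequence and is no evidence of binding here, and mature let-7 was not analysed here.

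The allograft tumors held the highest levels of most of these genes. Lin28b, Igf2bp2, Hmga1, Hmga2, Igf2 and H19 were each higher in all 3 allograft libraries than in any of the other 9 libraries. Igf2bp3 was near 0 in sorted proximal tubule cells and at 2.42 FPKM or more in all 9 tumors, and Mycn, Hmga2 and Lin28b too were higher in all 9 tumors than in every sorted-cell library, Lin28b at no more than 0.13 FPKM in primary tumors and metastases. Myc, by contrast, was higher in all 3 sorted-cell libraries than in primary tumors 2 and 3. Differences were tested with limma on log2(FPKM + 1) over the 16313 genes that reached 1 FPKM in 3 or more libraries, with Benjamini-Hochberg adjustment over all of them and a call at an adjusted p under 0.05. Of the 10 genes 9 passed this filter; Lin28b did not. Among those 9 genes 5 were higher in all 3 allografts than in the other 9 libraries, while 15.0% of all genes that passed the filter had this pattern. Lying above all sorted-cell libraries was common: all 3 primary tumors did so for 56.7% of the filtered genes, all 3 metastases for 62.7% and all 3 allografts for 55.9%.

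**Figure D1:**
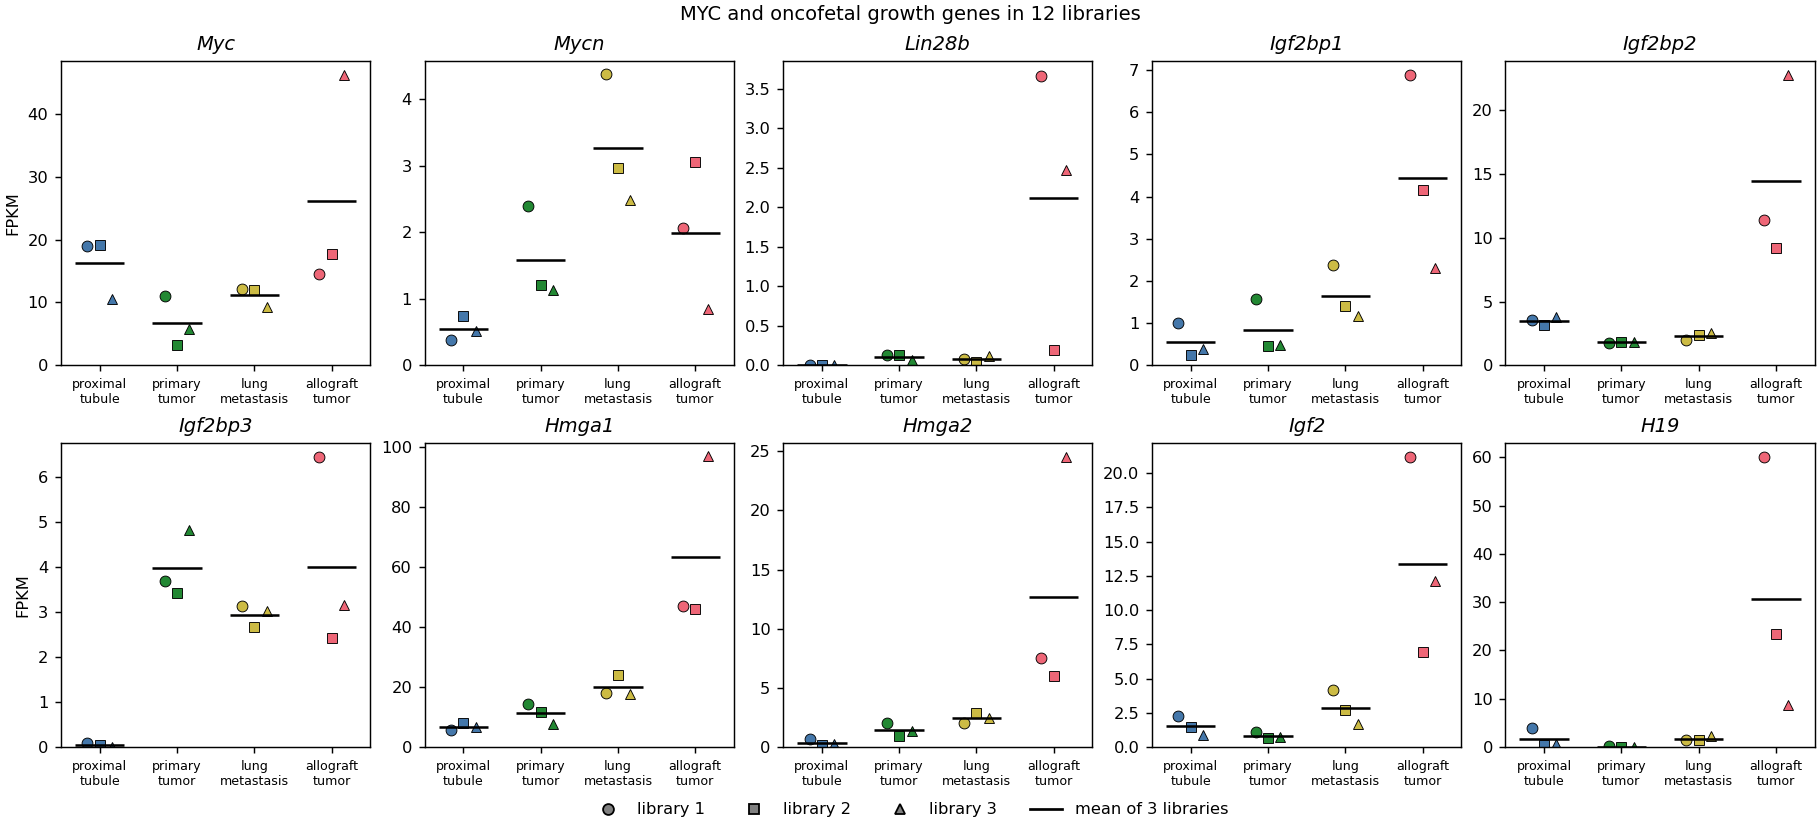
FPKM of each of the 10 genes (vertical axis, linear, its own range in each panel) in the 3 libraries of each group (points, shaped by library number) with the group mean (bar). The 3 allograft points lie above all other points for Lin28b, Igf2bp2, Hmga1, Hmga2, Igf2 and H19, while Igf2bp3 is near 0 only in the sorted cells and Myc is lowest in primary tumor 2.

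Counted by comparison, 1 of the 9 tested genes was called higher in primary tumors than in sorted cells (Igf2bp3) and 2 lower (Myc and Igf2bp2), where 48.2% of all genes were called higher and 4.9% lower. Metastases against sorted cells gave 4 higher (Mycn, Igf2bp3, Hmga1 and Hmga2) and 0 lower, against 54.0% and 14.4% of all genes. Allografts against sorted cells gave 8 higher, all but Myc, and 0 lower, where 52.2% of all genes were called higher and 16.9% lower. These 3 comparisons share the same sorted cells. Between tumor groups, allografts exceeded primary tumors for 7 genes (Myc, Igf2bp1, Igf2bp2, Hmga1, Hmga2, Igf2 and H19), where 20.5% of all genes were called higher and 21.1% lower, and exceeded metastases for 5 (Igf2bp2, Hmga1, Hmga2, Igf2 and H19), where the shares were 10.4% and 13.3%. No gene of the set was called lower in allografts, a count of 0 in each of these comparisons. The median difference of the 9 genes was 2.18 against sorted cells, 2.26 against primary tumors and 1.54 against metastases, with all-gene medians of 0.66, -0.02 and 0.03. None of the 9 was called between metastases and primary tumors with limma (20.9% of all genes were, 11.3% higher and 9.59% lower), although Mycn, Hmga1 and Igf2 had an unadjusted p under 0.05, 3 in all. The allografts differ from the other tumors in host, in the source of the cells and in time, and these cannot be told apart.

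**Figure D2:**
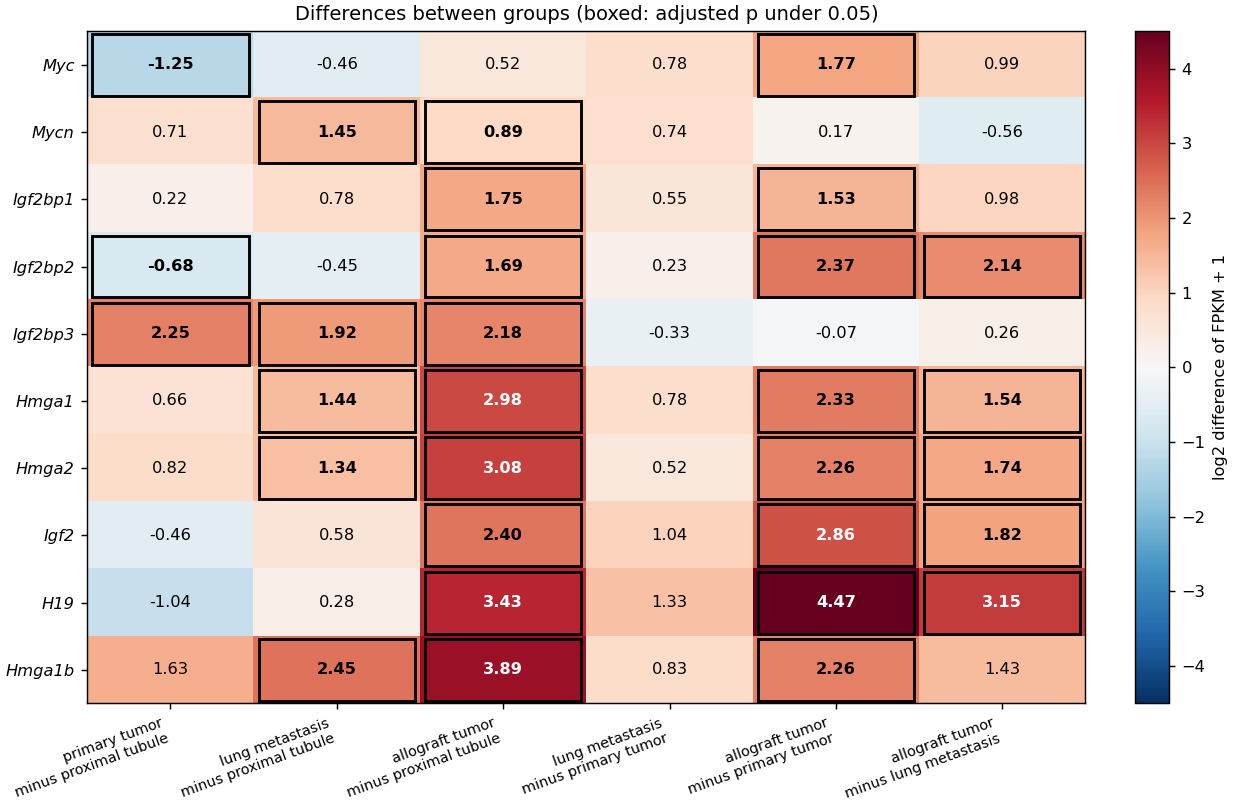
Differences on the log2(FPKM + 1) scale for the 9 tested genes and for Hmga1b, a near-identical copy of Hmga1 (rows), in 6 comparisons (columns), coloured from lower (blue) to higher (red). Boxes mark an adjusted p under 0.05 by limma: the 3 allograft columns hold 8, 7 and 5 boxes for the 9 genes, and the column of metastases minus primary tumors holds 0.

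Myc (chr15:61985391-61990374, plus strand) is an early-response gene that is switched on within minutes of growth stimuli or tissue handling. Its level was 18.9, 19.1 and 10.6 FPKM in the sorted proximal tubule cells, 11.1, 3.22 and 5.79 in primary tumors, 12.1, 12 and 9.31 in metastases and 14.5, 17.7 and 46.2 in allografts. Neighbouring groups in the order allograft, sorted cells, metastasis, primary tumor all overlapped. Myc fell by 1.25 ± 0.46 (SE, n = 3 per group) in primary tumors against sorted cells, with a limma adjusted p of 0.0416. This call rested on single libraries: it was lost without primary tumor 2 (-0.88, adjusted p 0.132), without primary tumor 3 (0.0857), and without sorted-cell library 1 (0.115) or 2 (0.117). With primary tumor 1 as the only primary tumor the difference was -0.47 (limma adjusted p 0.507). Allografts exceeded primary tumors by 1.77 ± 0.46 (limma adjusted p 0.0117), and by 0.99 (0.262) with primary tumor 1 alone. Against sorted cells the allograft difference was 0.52 ± 0.46 (limma adjusted p 0.333), and it turned to -0.82 and -0.10 under TPM and median-of-ratios scaling. Allograft 3 had the highest Myc of all 12 libraries, while allografts 1 and 2 lay among the sorted-cell values.

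Other immediate early genes had their highest sums in the sorted cells, though not in the library order of Myc. The FPKM of 18 such genes summed to 1725.8, 1204 and 710 in the sorted cells, 361, 198 and 243 in primary tumors, 427, 645 and 694 in metastases and 494, 669 and 439 in allografts. Fos, a subunit of the AP-1 factor, stood at 397, 252 and 155 FPKM in sorted cells and at 4.28 to 93.0 in the 9 tumors. Egr1, a zinc finger factor induced along with it, was at 91.3, 76.6 and 44.1 in the sorted cells. Of 17 immediate early genes tested, 10 were called lower and 0 higher in primary tumors against sorted cells (median -1.13, all genes 0.59), and 13 or 14 were called lower under the 3 other scalings. As deposited, 4.9% of all genes were called lower and 48.2% higher there. In metastases against sorted cells 2 of the 17 were called higher and 5 lower (54.0% and 14.4% of all genes). In allografts the counts were 2 and 8 (52.2% and 16.9%). Against primary tumors, metastases had 6 called higher and 0 lower (11.3% and 9.59% of all genes). Allografts had the same counts there (20.5% and 21.1%). The part of an immediate early response in the Myc level of the sorted cells was not tested.

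**Figure D3:**
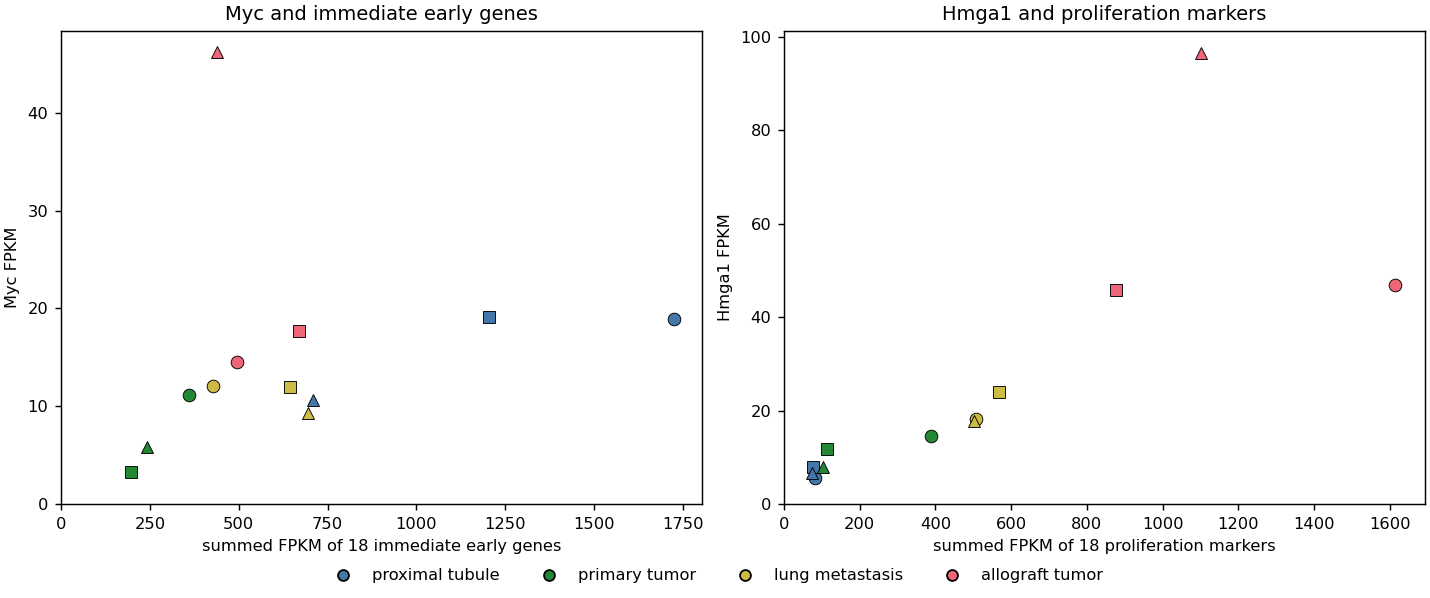
Left, Myc FPKM against the summed FPKM of 18 immediate early genes, and right, Hmga1 FPKM against the summed FPKM of 18 proliferation markers, with 1 point per library coloured by group and shaped by library number. The sorted cells hold the highest immediate early sums (710 to 1725.8), while allograft 3 has the highest Myc at a sum of 439; the allografts hold the highest Hmga1 levels and proliferation sums.

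Mycn (chr12:12936093-12941914, minus strand), the paralog of Myc that is prominent in embryonic tissue including the developing kidney, had another pattern. It stood at 0.38, 0.745 and 0.514 FPKM in sorted cells, 2.39, 1.21 and 1.13 in primary tumors, 4.37, 2.96 and 2.48 in metastases and 2.07, 3.05 and 0.847 in allografts. All 9 tumor libraries lay above all 3 sorted-cell libraries, and the 3 tumor groups overlapped except that metastases lay above primary tumors. Metastases exceeded sorted cells by 1.45 ± 0.30 (limma adjusted p 0.0015), a call that was lost after quantile normalization (0.12, adjusted p 0.721). The allograft difference of 0.89 ± 0.30 (limma adjusted p 0.0217) was less secure. It was lost under TPM scaling (0.21, limma adjusted p 0.552) and median-of-ratios scaling (0.59, 0.0989), turned to -0.10 with quantile normalization, and was lost without sorted-cell library 1 (0.0669) or 3 (0.0538) and without allograft 1 (0.0603) or 2 (0.0879). In primary tumors the difference was 0.71 ± 0.30 (limma adjusted p 0.0669). Between metastases and primary tumors it was 0.74 ± 0.30 (limma adjusted p 0.103), and 0.95 (0.0331) without primary tumor 1. The ratio of Myc to Mycn ran from 20.5 to 49.8 in the sorted cells and from 2.65 to 6.99 in 8 tumors, with 54.6 in allograft 3. That library had the lowest Mycn and the highest Myc of the allografts.

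A list of dimer partners, antagonists and other genes related to MYC held calls in allografts against sorted cells in shares near those of all genes. It is wider than direct partners and also holds Mycl, Mlx, Mlxip, Mlxipl, Fbxw7, Huwe1 and Usp28. Max, the obligate partner of MYC, was at 13.1 to 17.7 FPKM in sorted cells and 17.5 to 24.7 in tumors. Of the 15 genes of this list tested, 7 were called higher and 3 lower in allografts against sorted cells (median 0.39, all genes 0.66), where 52.2% of all genes were called higher and 16.9% lower. The list median turned to -0.79, -0.16 and -0.10 under TPM, median-of-ratios and quantile scaling. Mxd3, a MAX-binding repressor expressed in cycling cells, rose by 2.77 ± 0.42, and Mlxipl, the glucose-responsive factor ChREBP, fell by 4.48 ± 0.47 in that comparison (limma adjusted p 1.95e-04 and 2.00e-05). Mlxipl also fell by 2.02 ± 0.47 in primary tumors and by 4.91 ± 0.47 in metastases against sorted cells (limma adjusted p 0.00485 and 1.3e-05). Mxd4, another MAX-binding repressor, rose by 1.72 ± 0.25 in primary tumors against sorted cells (limma adjusted p 3.15e-04). Mycl, the third MYC paralog, rose by 1.19 ± 0.17 in primary tumors and 1.49 ± 0.17 in metastases against sorted cells (limma adjusted p 2.73e-04 and 3.2e-05).

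Target genes of MYC in ribosome biogenesis and growth were higher in allografts. Of 32 tested, 27 were called higher and 0 lower in allografts against primary tumors (median 1.26, all genes -0.02), and 24 to 29 were called higher under the 3 other scalings. Against metastases 17 were called higher and 0 lower (median 0.88, all genes 0.03), and 7, 16 and 14 under TPM, median-of-ratios and quantile scaling. As deposited, 20.5% of all genes were called higher and 21.1% lower in allografts against primary tumors, and 10.4% and 13.3% against metastases. Nop58, a core protein of the small nucleolar RNA complexes, was 2.42 ± 0.32 higher in allografts than in primary tumors (limma adjusted p 4.08e-04). Nop2, a ribosomal RNA methyltransferase, was 1.51 ± 0.25 higher in allografts than in metastases (limma adjusted p 0.00186). Metastases exceeded primary tumors for 7 of the 32 and fell below them for 0 (median 0.53, all genes 0.01). Of all genes 11.3% were called higher and 9.59% lower in that comparison. In primary tumors against sorted cells the list turned with the scaling: 10 higher and 0 lower as deposited, but 0 higher and 13, 5 and 4 lower under TPM, median-of-ratios and quantile scaling. The all-gene shares there were 48.2% higher and 4.9% lower as deposited. The summed FPKM of the 32 genes was 1327.5 to 1393.8 in sorted cells, 1090.7 to 2620.4 in primary tumors, 1914.4 to 2368.0 in metastases and 3518.4 to 5944.5 in allografts, highest in allograft 1 and not in allograft 3.

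Proliferation markers were higher in the same libraries. Mki67, a nuclear protein of cycling cells, was at 1.11, 2.7 and 1.94 FPKM in sorted cells, 28.7, 3.74 and 6.34 in primary tumors, 33.4, 38.0 and 33.5 in metastases and 54.5, 40.6 and 55.9 in allografts. Of 18 markers, 18 were called higher in allografts than in primary tumors and 17 in metastases than in primary tumors (medians 2.72 and 1.88), with the same counts under the 3 other scalings. As deposited, 20.5% and 11.3% of all genes were called higher in these comparisons. Against metastases 3 were called higher in allografts (10.4% of all genes were), and 1 to 3 under the other scalings. The part of cell proliferation in the levels of Myc, Hmga1 and the other genes was not tested.

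Lin28b (chr10:45376620-45486395, minus strand) was close to absent outside the allografts. The table lists it at 0 in all 3 sorted-cell libraries, at 0.13, 0.129 and 0.0699 FPKM in primary tumors and at 0.0795, 0.0469 and 0.114 in metastases. In allografts it stood at 3.67, 0.199 and 2.48 FPKM. Allografts 1 and 3 were thus far above every other library, while allograft 2 was only just above the highest primary tumor. Without the filter on low values, the allograft difference was 1.43 ± 0.38 against sorted cells (limma adjusted p 0.009), 1.28 ± 0.38 against primary tumors (0.0288) and 1.32 ± 0.38 against metastases (0.0384). Its paralog Lin28a, which acts in pluripotent cells, reached at most 0.132 FPKM in any library. The 8 tested genes of LIN28 action and microRNA processing gave 1 call in allografts against primary tumors and 1 against metastases, both for Xpo5, the exporter of microRNA precursors. It was higher by 0.87 ± 0.16 and 0.69 ± 0.16 (limma adjusted p 0.00185 and 0.00984). Of all genes 20.5% and 10.4% were called higher in these comparisons. Against sorted cells 4 of the 8 were called higher and 0 lower in each tumor group, a share of higher calls near that of all genes (48.2%, 54.0% and 52.2%). The list medians were 0.43, 0.70 and 0.48 in primary tumors, metastases and allografts, with all-gene medians of 0.59, 0.68 and 0.66. The largest rise was that of Dgcr8, the partner of Drosha (2.22 ± 0.22 in allografts, limma adjusted p 1.61e-05). Under TPM rescaling this count in allografts became 1 higher and 5 lower.

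The IGF2BP family split into different patterns. Igf2bp1 (chr11:95957163-96005940, minus strand) stood at 1.01, 0.241 and 0.4 FPKM in sorted cells, 1.57, 0.467 and 0.476 in primary tumors, 2.37, 1.41 and 1.16 in metastases and 6.88, 4.16 and 2.3 in allografts. Allografts 1 and 2 were above all other libraries, and allograft 3 lay between the metastases. Allografts exceeded sorted cells by 1.75 ± 0.35 (limma adjusted p 0.00111; 0.72 and 0.0718 after quantile normalization) and primary tumors by 1.53 ± 0.35 (0.0061). With primary tumor 1 as the only primary tumor the latter was 0.99 (limma adjusted p 0.173). Against metastases the difference was 0.98 ± 0.35 (limma adjusted p 0.0673), and 1.29 (0.0237) without allograft 3. In metastases against sorted cells it was 0.78 ± 0.35 (limma adjusted p 0.0691), and 0.98 (0.0477) without sorted-cell library 1.

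Igf2bp2 (chr16:22059009-22163299, minus strand), the family member with the broadest adult expression, was lower in primary tumors than in sorted cells and highest in allografts. Its values were 3.59, 3.14 and 3.77 FPKM in sorted cells, 1.75, 1.84 and 1.82 in primary tumors, 1.96, 2.38 and 2.56 in metastases and 11.4, 9.23 and 22.8 in allografts. No neighbouring groups in the order allograft, sorted cells, metastasis, primary tumor overlapped. The fall of 0.68 ± 0.26 in primary tumors (limma adjusted p 0.0497) stood at the threshold and was lost without any 1 of the 6 libraries (adjusted p 0.0783 to 0.122). This SE and p rest on a spread shared by all 4 groups, in which the allografts ranged from 9.23 to 22.8 FPKM. Within the 2 groups compared the values lay close together, at 1.75 to 1.84 and 3.14 to 3.77 FPKM. The fall grew to -1.44, -1.17 and -1.72 under TPM, median-of-ratios and quantile scaling, all called. In metastases the difference was -0.45 ± 0.26 (limma adjusted p 0.149), and it was called lower under each of these scalings (-1.22, -0.92 and -1.52). Allografts exceeded primary tumors by 2.37 ± 0.26, metastases by 2.14 ± 0.26 and sorted cells by 1.69 ± 0.26 (limma adjusted p 1.93e-04, 2.86e-04 and 2.26e-04). The last of these was lost after TPM rescaling (0.45, adjusted p 0.14).

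Igf2bp3 (chr6:49085223-49214957, minus strand), the most strictly fetal family member, was 1 of 4 genes of the set, with Mycn, Hmga2 and Lin28b, that lay higher in every tumor than in every sorted-cell library. Of all filtered genes 56.7%, 62.7% and 55.9% lay so in all 3 primary tumors, metastases and allografts, each group taken alone. Of the 9 tested genes it was the 1 called higher in all 3 tumor groups. It stood at 0.0943, 0.0361 and 0 FPKM in sorted cells, 3.69, 3.43 and 4.82 in primary tumors, 3.15, 2.68 and 3.02 in metastases and 6.45, 2.42 and 3.16 in allografts. The highest sorted-cell value is close to the worth of 1 fragment in a transcript of 2 kb, and the lowest tumor library was far above it. In the longest Igf2bp3 transcript, of 4345 bases, 1 fragment is worth less, so this value may stand for more than 1. Igf2bp3 rose by 2.25 ± 0.25 in primary tumors, 1.92 ± 0.25 in metastases and 2.18 ± 0.25 in allografts against sorted cells (limma adjusted p 8.25e-05, 8.71e-05 and 3.36e-05), and stayed called higher under each scaling (lowest 1.20, 0.82 and 1.37, with quantile normalization). With a pseudocount of 0.1 in place of 1 the differences were 4.87, 4.46 and 4.77, since the sorted cells were so close to 0. Between tumor groups it differed by -0.33 to 0.26, with no call. The ratio of Igf2bp2 to Igf2bp3 was 0.376 to 0.888 in primary tumors and metastases, 1.77, 3.82 and 7.22 in allografts, and 38.1 and 86.8 in the 2 sorted-cell libraries where Igf2bp3 was above 0. The more abundant family member thus changed from Igf2bp2 in sorted cells to Igf2bp3 in primary tumors and metastases, and was again Igf2bp2 in allografts.

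The promoter of Igf2bp3 was searched for the E-box CACGTG, the core motif bound by MYC with MAX, and for GGAATG, the core motif of the TEAD factors, on both strands. RefSeq (GRCm38.p6) promoters of 300 bases, from 250 before the start to 50 after it, were listed for 7 of the 10 genes in 11 entries. The E-box occurred in 2 of these genes, Igf2bp3 (2 matches) and Lin28b (1 match), and in 7.15% of all 32851 promoters. The Igf2bp3 entry is printed with its E-boxes in capitals because, of the 9 tested genes, this was the 1 called higher in all 3 tumor groups against sorted cells.
Igf2bp3, chr6:49214905-49215204, minus strand: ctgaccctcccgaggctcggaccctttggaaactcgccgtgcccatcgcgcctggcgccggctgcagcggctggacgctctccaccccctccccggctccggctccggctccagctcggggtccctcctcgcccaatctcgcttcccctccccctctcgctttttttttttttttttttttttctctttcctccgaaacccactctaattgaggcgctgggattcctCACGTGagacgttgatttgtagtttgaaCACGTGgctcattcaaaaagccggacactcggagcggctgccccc
No match says only that these letters are not in this window, and no binding was measured here.

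The HMGA genes were the most closely matched pair of the set. Hmga2 (chr10:120361275-120476469, minus strand), which is nearly silent in most adult tissue, stood at 0.662, 0.22 and 0.238 FPKM in sorted cells, 2.02, 0.919 and 1.39 in primary tumors, 2.07, 2.84 and 2.44 in metastases and 7.49, 6.0 and 24.5 in allografts. The 4 groups did not overlap in this order. Metastases exceeded sorted cells by 1.34 ± 0.41 (limma adjusted p 0.0139), but by 0.81 (0.0749) after TPM rescaling and 0.02 (0.967) after quantile normalization. Allografts exceeded sorted cells by 3.08 ± 0.41, primary tumors by 2.26 ± 0.41 and metastases by 1.74 ± 0.41 (limma adjusted p 8.03e-05, 0.00192 and 0.0118). With primary tumor 1 as the only primary tumor the second was 1.93 (limma adjusted p 0.0552). In primary tumors against sorted cells the difference was 0.82 ± 0.41 (limma adjusted p 0.114), and -0.46 after quantile normalization.

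Hmga1 (chr17:27556497-27563674, plus strand), which is expressed in most dividing cells, was at 5.55, 7.99 and 6.55 FPKM in sorted cells, 14.5, 11.8 and 7.82 in primary tumors, 18.1, 24.0 and 17.7 in metastases and 47, 45.9 and 96.7 in allografts. Only the lowest primary tumor and the highest sorted-cell library overlapped among neighbouring groups. Allografts exceeded sorted cells by 2.98 ± 0.30, primary tumors by 2.33 ± 0.30 and metastases by 1.54 ± 0.30 (limma adjusted p 1.73e-05, 4.10e-04 and 0.00492). Metastases exceeded sorted cells by 1.44 ± 0.30 (limma adjusted p 0.00174; 0.47 and 0.217 after TPM rescaling). In primary tumors the difference from sorted cells was 0.66 ± 0.30 (limma adjusted p 0.0915). It was 0.88 (0.0432) without primary tumor 3, and turned to -0.33 and -0.05 under TPM and quantile scaling. Between metastases and primary tumors it was 0.78 ± 0.30 (limma adjusted p 0.0918), and 0.97 (0.0394) without primary tumor 1. Across the 12 libraries Hmga1 and Hmga2 had the highest correlation of any pair of the 10 genes (Pearson r = 0.963 on log2(FPKM + 1), n = 12 libraries in 4 groups). The libraries share group and scaling, so this is a description.

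Values of Hmga1 carry an uncertainty of their own. Hmga1b (chr11:120762794-120764419, plus strand) is a copy whose 1626 bases align to 1 Hmga1 transcript over 1602 bases with 3 differences, a 99.8% identity, so reads can be shared out between them. The copy was listed at far higher FPKM than Hmga1: 206, 40.8 and 13.4 in sorted cells, 191, 165 and 114 in primary tumors, 308, 308 and 213 in metastases, and 619, 541 and 1201.2 in allografts. Its ratio to Hmga1 stayed between 11.8 and 17.0 in all 9 tumors but was 37.2, 5.11 and 2.04 in the sorted cells. With both genes summed, an alternative chosen after seeing the data, allografts exceeded sorted cells by 3.72 (limma adjusted p 6.36e-04) and primary tumors by 2.27 (0.0217), and metastases exceeded sorted cells by 2.28 (0.0121). The difference between allografts and metastases was then 1.44 and no longer called (limma adjusted p 0.153).

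**Figure D4:**
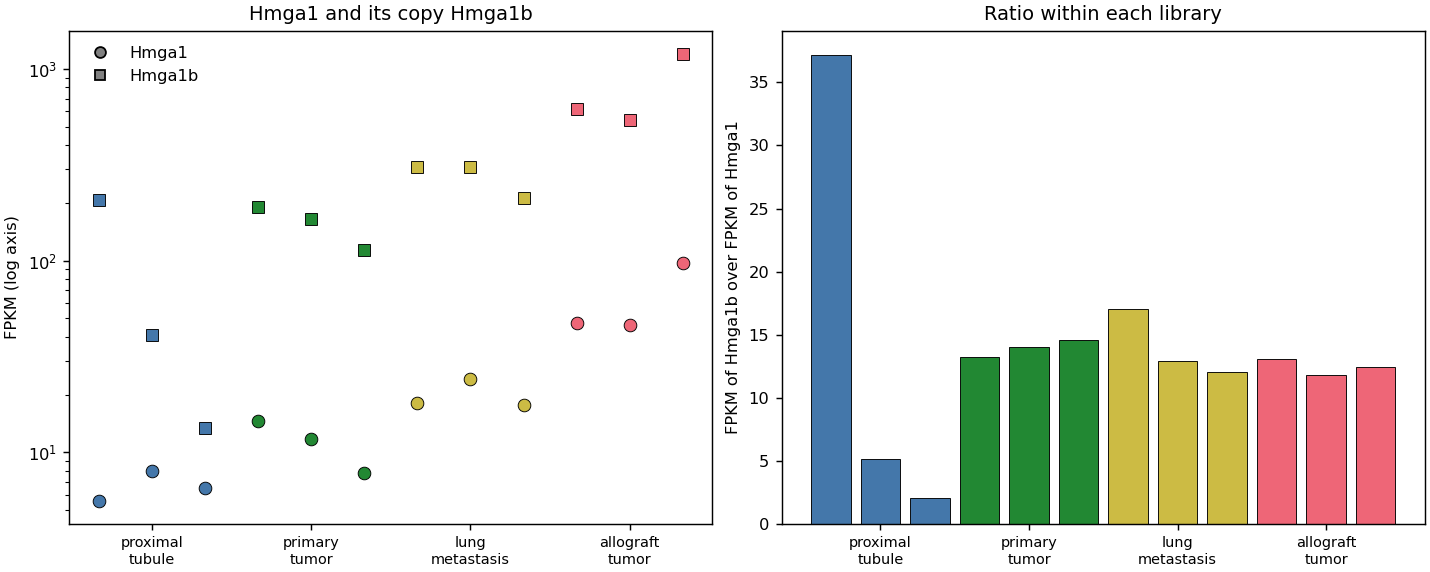
Left, FPKM of Hmga1 (circles) and of its copy Hmga1b (squares) in each library on a log axis; right, the ratio of Hmga1b to Hmga1 in each library, with bars coloured by group. The ratio is 11.8 to 17.0 in the 9 tumor libraries and 37.2, 5.11 and 2.04 in the 3 sorted-cell libraries.

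Igf2 and H19 lie 72622 bases apart on chromosome 7 (Igf2 at chr7:142650766-142666816 and H19 at chr7:142575529-142578143, both minus strand). They share enhancers, and in normal tissue Igf2 is expressed from the paternal and H19 from the maternal allele. Igf2 stood at 2.29, 1.5 and 0.896 FPKM in sorted cells, 1.08, 0.642 and 0.754 in primary tumors, 4.17, 2.73 and 1.69 in metastases and 21.2, 6.92 and 12.1 in allografts. H19 was at 3.99, 0.472 and 0.584 FPKM in sorted cells, 0.291, 0.0315 and 0 in primary tumors, 1.55, 1.49 and 2.3 in metastases and 60.0, 23.5 and 8.73 in allografts. For both genes every allograft lay above every other library and every metastasis above every primary tumor. Of all filtered genes 21.9% had every metastasis above every primary tumor and 20.1% had every metastasis below. Sorted-cell library 1 held most of the H19 signal of its group.

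Igf2 was higher in allografts by 2.40 ± 0.37 against sorted cells, 2.86 ± 0.37 against primary tumors and 1.82 ± 0.37 against metastases (limma adjusted p 2.06e-04, 3.86e-04 and 0.00552). H19 was higher by 3.43 ± 0.61, 4.47 ± 0.61 and 3.15 ± 0.61 (limma adjusted p 5.49e-04, 4.96e-04 and 0.00452). All 6 calls held under each scaling and each left-out library. Metastases exceeded primary tumors by 1.04 ± 0.37 for Igf2 and 1.33 ± 0.61 for H19 (limma adjusted p 0.0698 and 0.145). With a pseudocount of 0.1 these became 1.62 (limma adjusted p 0.0401) and 3.42 (0.0236). Primary tumors against sorted cells gave -0.46 ± 0.37 for Igf2 and -1.04 ± 0.61 for H19 (limma adjusted p 0.31 and 0.172). Igf2 was called lower there after TPM rescaling (-1.0) and quantile normalization (-1.59), and H19 after quantile normalization (-1.92) and with a pseudocount of 0.1 (-2.76). Metastases against sorted cells gave 0.58 ± 0.37 and 0.28 ± 0.61 without a call (limma adjusted p 0.183 and 0.691), and both turned negative after TPM rescaling and quantile normalization. Over the 12 libraries the correlation of Igf2 with H19 was 0.922 (Pearson r, log2(FPKM + 1)).

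An antisense gene, Igf2os, overlaps Igf2 over 7124 bases on the other strand, and a strand setting was not given in the sources used here. It was listed at 3.26, 1.97 and 1.06 FPKM in allografts and at most at 0.0949 in the other 9 libraries, so reads from the pair may not be told apart. Igf2 was 3.51 to 11.5 times as high as Igf2os in the allografts.

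Igf2 has several promoters, and 4 of its starts are listed. The TEAD core GGAATG, read on either strand as GGAATG or CATTCC, occurred in 3 of these 4 entries, in no entry of the other 6 genes, and in 14.7% of all 32851 promoters. The entry with 2 matches is printed with the matches in capitals, since TEAD factors are the partners of YAP and TAZ.
Igf2, chr7:142661222-142661521, minus strand: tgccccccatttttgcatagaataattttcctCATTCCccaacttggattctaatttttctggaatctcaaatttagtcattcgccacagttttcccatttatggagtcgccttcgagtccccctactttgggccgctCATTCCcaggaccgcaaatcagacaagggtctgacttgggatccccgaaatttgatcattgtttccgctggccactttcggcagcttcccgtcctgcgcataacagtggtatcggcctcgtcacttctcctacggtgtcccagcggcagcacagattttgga
As for the E-box, a match is a description of the sequence and no measure of binding.

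Other genes of the IGF system changed in both directions. Igf1r, the receptor through which IGF2 signals and itself a let-7 target, was at 56.5, 58.5 and 72.5 FPKM in sorted cells, 22.8, 31.5 and 31.6 in primary tumors, 25.6, 19 and 19.6 in metastases and 27.5, 34.2 and 37.5 in allografts. Every tumor lay below every sorted-cell library, and Igf1r fell by 1.11 ± 0.19, 1.51 ± 0.19 and 0.90 ± 0.19 (limma adjusted p 9.80e-04, 7.3e-05 and 0.00177). Igf2r, which clears IGF2, ranged from 20.3 to 62.8 FPKM over the 12 libraries, both extremes being primary tumors. Of 16 IGF system genes tested, 7 were called higher and 6 lower in allografts against sorted cells, where 52.2% of all genes were called higher and 16.9% lower. The list median was 0.34 (all genes 0.66), and -1.01, -0.28 and -0.15 under TPM, median-of-ratios and quantile scaling. Igfbp2, an IGF-binding protein of serum and fetal tissue, had the largest called rise of this list in each tumor group. It stood at 1.74, 0.121 and 0.423 FPKM in sorted cells, 617, 32.1 and 32.8 in primary tumors, 1183.9, 643 and 583 in metastases and 1014.3, 410 and 1.35 in allografts. Allograft 3 lay below the highest sorted-cell library, and every other tumor was far above it. Igfbp2 rose by 5.76 ± 1.93, 8.87 ± 1.93 and 5.92 ± 1.93 in primary tumors, metastases and allografts (limma adjusted p 0.0283, 0.00207 and 0.0183). With libraries left out, an alternative chosen after seeing the data, the call in primary tumors was lost without primary tumor 1 (4.35, limma adjusted p 0.0945), without any 1 of the sorted-cell libraries (0.0509 to 0.0758) and after quantile normalization (0.0658). The call in allografts was lost without sorted-cell library 2 (0.0513), allograft 1 (0.0778) or allograft 2 (0.0695), and the difference was 8.62 (limma adjusted p 1.59e-04) without allograft 3. Igfbp3, a carrier of IGFs in serum, rose by 3.69 ± 0.45 and Igfbp1 fell by 4.48 ± 0.66 in allografts against sorted cells (limma adjusted p 4.65e-05 and 1.57e-04). Igf1, the other IGF ligand, rose by 3.92 ± 0.51 in metastases against sorted cells (limma adjusted p 7.8e-05). Igfbp5 was lower by 3.51 ± 0.53 in allografts and by 3.15 ± 0.53 in metastases than in primary tumors (limma adjusted p 8.22e-04 and 0.00281).

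Other imprinted growth genes did not follow Igf2 and H19 as a group. Of 13 tested, 1 was called higher and 3 lower in allografts against primary tumors (median -0.29, all genes -0.02), and 2 higher and 4 lower against metastases (median -0.71, all genes 0.03), with the same counts under the other scalings. As deposited, 20.5% of all genes were called higher and 21.1% lower against primary tumors, and 10.4% and 13.3% against metastases. Meg3, a maternally expressed noncoding RNA, was 3.09 ± 0.32 higher in allografts than in primary tumors, while Cdkn1c, a cell cycle inhibitor, was 2.51 ± 0.28 lower (limma adjusted p 1.48e-04 and 1.84e-04). Peg3, a paternally expressed zinc finger gene, was 4.63 ± 0.84 lower in allografts than in metastases (limma adjusted p 0.00318). Dcn, which is both imprinted in mouse and a fibroblast marker, rose by 7.19 ± 0.49 in allografts against sorted cells (limma adjusted p 2.96e-06). Fibroblast markers were called higher for 6 of 10 and lower for 1 in allografts against primary tumors, and their sums were 170 to 1170.4 FPKM in primary tumors and 1730.5 to 2821.1 in allografts. The part of stromal cells in the Igf2 and H19 levels was not tested.

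Beyond the 10 genes, other let-7 targets and oncofetal genes were called in both directions between tumors. Of 15 other let-7 targets, 5 were called higher and 2 lower in allografts against primary tumors (median 0.34, all genes -0.02), and 2 and 2 against metastases (median 0.31, all genes 0.03). After TPM rescaling these counts became 2 and 2, and 0 and 3. As deposited, 20.5% of all genes were called higher and 21.1% lower against primary tumors, and 10.4% and 13.3% against metastases. The counts of let-7 targets against metastases were near the latter shares. Cdc34, a ubiquitin-conjugating enzyme, was 1.4 ± 0.28 and 1.06 ± 0.28 higher, while Ccnd1, cyclin D1, was 1.18 ± 0.40 lower in allografts than in primary tumors (limma adjusted p 0.00344, 0.0222 and 0.036). Ccnd2, cyclin D2, was 1.68 ± 0.36 lower in allografts than in metastases (limma adjusted p 0.00781). Of 14 other oncofetal genes, 5 were called higher and 1 lower in allografts against primary tumors (median -0.03, all genes -0.02), a median that was 0.26 after quantile normalization. Sox11, a transcription factor of the embryonic nervous system and kidney, was 2.99 ± 0.47 higher there and 2.03 ± 0.47 higher in metastases than in primary tumors (limma adjusted p 9.15e-04 and 0.014). Tpbg, the oncofetal surface protein 5T4, rose by 1.65 ± 0.40, 2.84 ± 0.40 and 3.40 ± 0.40 in primary tumors, metastases and allografts against sorted cells (limma adjusted p 0.00558, 1.27e-04 and 3.48e-05).

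**Figure D5:**
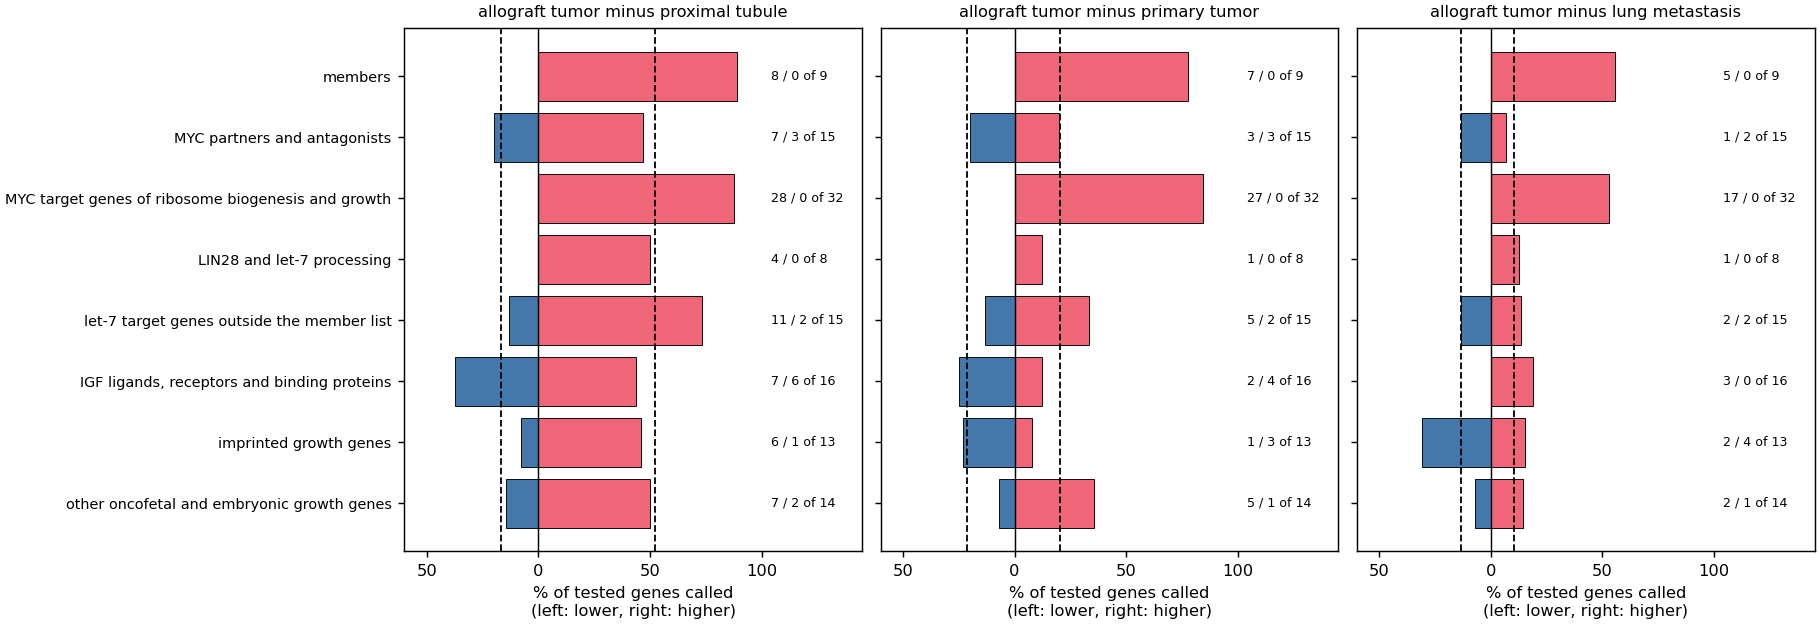
Share of the tested genes of each list called higher (red, to the right) or lower (blue, to the left) in allografts against sorted proximal tubule cells, primary tumors and lung metastases; the counts stand at the right as higher / lower of tested, and dashed lines mark the share of all genes. The list of MYC targets has 28, 27 and 17 of 32 genes called higher, while lists of imprinted and IGF genes hold calls in both directions.

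The 3 allografts were not alike. Allograft 1 held the highest values of Lin28b, Igf2bp1, Igf2bp3, Igf2 and H19 among them, allograft 3 those of Myc, Igf2bp2, Hmga1 and Hmga2, and allograft 2 that of Mycn. H19 ran from 8.73 FPKM in allograft 3 to 60.0 in allograft 1, and Hmga2 from 6.0 in allograft 2 to 24.5 in allograft 3. The set thus varied along more than 1 order of libraries within a group. Macrophage marker sums also varied, at 6616.8, 3684.4 and 1730.3 FPKM in allografts 1, 2 and 3, and fibroblast sums at 2321.1, 2821.1 and 1730.5. Their part in the differences between allografts was not tested.

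For each of the 9 tested genes the most similar profiles were sought among genes whose mean reached 10 FPKM in their highest group, by Pearson correlation of log2(FPKM + 1) over the 12 libraries. Each search had 10190 or 10191 candidates, so the nearest profile is the best of many. The libraries share group and scaling, so these correlations are descriptions. Myc was most like Pabpc1, the poly(A)-binding protein (r = 0.95), and Hmga1 most like Pdap1 and Aimp2 (0.989 each). Hmga2 was most like Pds5b, a cohesin regulator (0.982), and Igf2bp3 most like Rabgap1 (0.988). Mycn was most like Ptgis, prostacyclin synthase (0.983), and H19 most like Tyms, thymidylate synthase (0.973). Igf2bp1, Igf2 and H19 each had Mettl2, an RNA methyltransferase, among their 3 nearest profiles (0.971, 0.958 and 0.956). Igf2bp2 was most like Rfc1, a DNA replication factor (0.951). Within the set the lowest correlations were those of Myc with Igf2bp3 (-0.247) and of Mycn with Igf2bp2 (-0.15) and Myc (-0.139).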

How the data were processed

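Total RNA was made into 12 mouse libraries by Illumina protocols, per the labels. The submitters' processing notes name bcl2fastq 2.17.1.14 and Salmon with the mouse build GRCm38 (mm10), and the deposited table holds FPKM per Ensembl gene made by the authors, with no read counts. Not given in the sources used here were the annotation release, the strand setting and any filter. Symbols came from the GENCODE M21 annotation (24189 of 24432 genes matched), and 0 columns of per-sample values were left unused. Depth was estimated from the smallest steps between FPKM values in transcripts of at least 1000 bases.

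From the deposited FPKM, log2(FPKM + 1) was computed for the genes that reached 1 FPKM in 3 or more of the 12 libraries. All 4 groups were fitted together in limma 3.58.1 (R 4.3.3) with a mean-variance trend and no covariate, for 6 comparisons, and p-values were adjusted over all genes of a comparison. Each SE therefore rests on a spread shared by all 4 groups, not on that of the groups compared alone. With 3 libraries against 3 an exact permutation test cannot go below 0.1, so only the fit across all genes was used. The fit was tested on simulated data without scale differences between groups, with no changes placed in genes of low level. That test therefore cannot speak to the effects of scaling or of low values. Replicate numbers recur in each group, but the deviations of same-numbered libraries correlated at no more than 0.0977, so they were not treated as pairs. Such correlations cannot show whether a primary tumor and a metastasis came from the same mouse, which the labels do not give. The tests between these groups take them as separate. Alternatives were other pseudocounts, filters and scalings, the replicate number as a block, 2-group fits and left-out libraries.

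The genes and lists were chosen with earlier results of these data known, and no test is given for a list as a whole. All 10 genes are reported in all libraries. From each list of related genes, called genes with the largest rise or fall were named (2 rises and 1 fall against sorted cells, 1 of each between tumors), not all of which are printed. Fos, Egr1, Max, Mki67, Lin28a, Igf1r and Igf2r were named as reference points. Hmga1b, Igf2os, Lats1 and Lats2 are named beside them because a result turns on them.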

Additional observations from a re-analysis of the deposited data

Results flagged for a closer look

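For Myc, Igf2bp2, Igf2 and H19 the differences from the shared sorted proximal tubule cells had opposite signs in different tumor groups as deposited, with the difference between those tumor groups itself called by limma. In each pair except that of Igf2bp2 in allografts and primary tumors, 1 of the 2 differences from sorted cells was not called. Myc stood at 0.52 in allografts (limma adjusted p 0.333) and at -1.25 in primary tumors (0.0416), and the difference between the tumors was 1.77 (limma adjusted p 0.0117). Under TPM and median-of-ratios scaling the allograft value of Myc was -0.82 and -0.10, the sign it had in primary tumors. Igf2bp2 was 1.69 higher in allografts but -0.68 in primary tumors and -0.45 in metastases (not called, limma adjusted p 0.149), with differences of 2.37 (limma adjusted p 1.93e-04) and 2.14 (2.86e-04). For Igf2 the values were 2.40 in allografts and -0.46 in primary tumors (not called, limma adjusted p 0.31), a difference of 2.86 (limma adjusted p 3.86e-04). H19 gave 3.43 and -1.04 (not called, limma adjusted p 0.172), a difference of 4.47 (limma adjusted p 4.96e-04). In each case all 3 allografts exceeded all 3 primary tumors, as they did for 21.2% of all filtered genes. Groups of 3 were too small for a search for single outlying libraries.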

How the results depend on the processing

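Of 767 alternative values of single genes, 678 kept direction and side of the threshold, 34 lost a call, 28 gained one and 27 changed sign; where no cause is evident from how an alternative is built, the cause was not tested. The 3 calls of primary tumors against sorted cells became 6 with a pseudocount of 0.1, 1 with no filter, 1 with a filter at 5 FPKM, 6 after quantile normalization and 1 to 2 with 1 library left out. With the filter at 5 FPKM, which drops the lower genes, 2 of 4 calls were left for metastases and 5 of 8 for allografts against sorted cells. Metastases against primary tumors went from 0 calls to 2 with a pseudocount of 0.1, 1 with only the 2 groups in the fit and 0 to 2 with 1 library left out. Allografts against primary tumors went from 7 to 4 without primary tumors 2 and 3, where the lone primary tumor is assumed to vary like the other groups. With 1 library left out, calls ran from 4 to 5 for metastases and 7 to 8 for allografts against sorted cells, stood at 7 for allografts against primary tumors and ran from 5 to 6 for allografts against metastases. The replicate number as a block (replicate block) left 3, 5, 8, 1, 7 and 6 calls in the 6 comparisons; 5 single calls changed with it: Myc in primary tumors against sorted cells was lost (adjusted p 0.0624), and 4 were gained. These were Mycn in primary tumors (limma adjusted p 0.0495) and Igf2bp1 in metastases (0.00561) against sorted cells, Igf2 in metastases against primary tumors (0.0295) and Igf2bp1 in allografts against metastases (0.00726). The labels do not say whether same-numbered libraries share more than a number.

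Over all genes, 8661 calls of primary tumors against sorted cells became 5738 after quantile normalization. The 3414 of metastases against primary tumors became 1270 with only the 2 groups, 1096 without primary tumors 2 and 3, and 1162 to 6215 with 1 library left out (6215 without primary tumor 1). The 6784 of allografts against primary tumors became 3108 and 3188 under the first and second of these, and the 3872 of allografts against metastases ran from 1944 to 3653 with 1 library left out.

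Signs changed against sorted cells mostly with scaling. In primary tumors Mycn became -0.59, Hmga2 -0.46 and Hmga1 -0.05 after quantile normalization, Hmga1 -0.33 after TPM rescaling, and Igf2bp1 -0.18, -0.01 and -0.93 under TPM, median-of-ratios and quantile scaling and -0.04 (without primary tumor 1) to 0.43 with 1 library left out. In metastases Igf2bp1 became -0.53 after quantile normalization, Igf2 -0.12 and -0.66 under TPM and quantile scaling, and H19 -0.32, -0.05 and -0.95 under the 3 scalings and -0.03 (without sorted-cell library 2) to 0.85 with 1 library left out. In allografts Myc became -0.82 and -0.10 under TPM and median-of-ratios scaling and Mycn -0.10 after quantile normalization. Between tumors, Mycn in allografts against primary tumors ran from -0.08 (without allograft 2) to 0.49 with 1 library left out and was -0.26 without primary tumors 2 and 3. There Igf2bp3 became 0.17 after quantile normalization and 0.01 without primary tumors 2 and 3, and ran from -0.39 to 0.17 with 1 library left out, above 0 without primary tumor 3 and without allografts 2 or 3. Against metastases it became -0.02 after TPM rescaling and ran from -0.07 (without allograft 1) to 0.5. Of these results, Mycn in allografts against sorted cells was the 1 called as deposited. Depth limits what can be said of genes near 0, namely Lin28b outside the allografts, H19 in primary tumors and Igf2bp3 in sorted cells.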
